A study of Mus musculus with 9 samples.

Results

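The 9 genes Lyn, Blk, Btk, Syk, Cd22, Cd72, Ptpn6, Cr2 and Fcmr encode components of B-cell receptor signalling and its brakes, and they were chosen by symbol from the 31053 genes of the count table. Their transcripts were counted in single cells of the femoral marrow of 9 female mice aged 9 to 10 weeks. There were 3 mice each of NZB, NZW and NZBWF1, the last being the F1 offspring of NZW females and NZB males that later develops lupus-like disease. The labels give no transgene or treatment, and the parental strains served as controls for the F1 mice. The model is limited to 1 age, to females and to unsorted marrow.

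B cells sense antigen through membrane immunoglobulin paired with Cd79a and Cd79b. The Src-family kinases Lyn and Blk phosphorylate the receptor tails, Syk docks there and starts the cascade, and Btk carries the signal to phospholipase C. Cr2 (CD21) binds complement fragments and lowers the threshold for activation, and Fcmr is a receptor for IgM. Cd22 and Cd72 are inhibitory receptors with cytoplasmic motifs that, once phosphorylated, recruit the phosphatase Ptpn6 (SHP-1), which opposes the kinases. Lyn acts on both sides, since it also phosphorylates these inhibitory motifs. During B-cell development in marrow, signalling runs first through the pre-B-cell receptor and then through surface IgM.

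All 9 genes are protein coding, and each was present in the mouse annotation (GENCODE vM21, build GRCm38) under the same identifier as in the count table. Lyn (ENSMUSG00000042228) lies at chr4:3678115-3813122 and Cd72 (ENSMUSG00000028459) at chr4:43446462-43454628. Fcmr (ENSMUSG00000042474) and Cr2 (ENSMUSG00000026616) lie at chr1:130865669-130880791 and chr1:195136811-195176716. Ptpn6 (ENSMUSG00000004266) lies at chr6:124720707-124738714, Cd22 (ENSMUSG00000030577) at chr7:30865402-30880342 and Syk (ENSMUSG00000021457) at chr13:52583173-52648792. Blk (ENSMUSG00000014453) lies at chr14:63372836-63417037 and Btk (ENSMUSG00000031264) at chrX:134542336-134583570.

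Promoter sequence is shown for 3 genes on which the results below turn. Fcmr and Cr2 had the largest rises between the small pre-B and immature stages, and Cd72 had the strain difference of smallest adjusted p within a B-lineage stage. The sequences are from RefSeq (GRCm38.p6), they belong to the reference strain and not to NZB or NZW, and they are written 5′ to 3′ on the gene's strand and end at the first annotated exon. Capitals mark a match to GAGGAA, the core read by PU.1 and related Ets factors, on either strand.
Cd72, chr4:43454629-43454876, minus strand: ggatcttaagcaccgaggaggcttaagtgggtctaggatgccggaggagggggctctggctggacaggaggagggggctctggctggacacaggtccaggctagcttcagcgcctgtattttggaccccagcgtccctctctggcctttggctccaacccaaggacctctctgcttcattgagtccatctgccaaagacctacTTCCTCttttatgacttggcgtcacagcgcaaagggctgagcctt
Cr2, chr1:195176720-195176969, minus strand: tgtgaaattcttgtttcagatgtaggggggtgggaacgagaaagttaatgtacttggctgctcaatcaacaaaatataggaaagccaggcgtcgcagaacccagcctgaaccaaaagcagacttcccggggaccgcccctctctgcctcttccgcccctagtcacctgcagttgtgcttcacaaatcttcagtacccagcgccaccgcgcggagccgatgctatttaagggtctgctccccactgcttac
Fcmr, chr1:130865527-130865668, plus strand: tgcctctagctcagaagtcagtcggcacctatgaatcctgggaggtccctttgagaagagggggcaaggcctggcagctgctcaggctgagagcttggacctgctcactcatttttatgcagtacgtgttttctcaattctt

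The Cd72 window of 248 bases held 1 match to GAGGAA, which began 47 bases before the RefSeq start and which does not overlap another searched motif. Of 32851 RefSeq promoters, 23.0% held a match in the window of this length. The octamer ATTTGCAT (1.60% of promoters at this length), the EBF motif (0.776%) and an NF-kB-type motif (0.353%) were not found in it. None of the 4 motifs was found in the Cr2 window of 250 bases or the Fcmr window of 142 bases, in which 23.3% and 14.0% of promoters held GAGGAA. RefSeq windows were at hand for 7 of the 9 genes, and that of Cd22 had 0 bases left outside annotated exons.

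Of 68444 deposited barcodes, 39051 passed the quality limits, with 8106539 to 18663189 unique molecular identifiers (UMIs, each counting 1 captured molecule) per mouse and a median of 2182.5 to 2536.5 UMIs per cell. Marker gates placed 6992 cells in 6 B-lineage stages and 25560 cells in 16 other classes, while 4433 cells carrying markers of more than 1 lineage were left out. Levels are given in CPM, the UMIs of a gene per 1000000 UMIs of the same class in the same mouse, over classes with at least 10 cells in that mouse. NZB marrow gave few B-lineage cells, except for plasma-cell-like cells, which numbered 16 to 43 per NZB mouse against 6 to 9 per NZW mouse. Small pre-B-like cells numbered 16 to 20 per NZB mouse against 91 to 286 per NZW mouse, immature-B-like cells 38 to 65 against 144 to 257, and mature-B-like cells 8 to 38 against 119 to 168. The mature class therefore rests on NZB mice 1 and 3, and plasma-cell-like sums exist for NZB and NZBWF1 only. In the 5 classes checked, 7 to 9 of 9 libraries were closest to another of their own strain, with all 9 in classical-monocyte-like and pDC-like cells. Among the kept cells, 170 of 38879 barcode sequences occurred in more than 1 library.

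Each of the receptor genes rose at 1 or more steps along the B lineage, and they differed in which. Blk, Cd72, Lyn, Ptpn6, Cd22 and Syk were already above their pro-B levels in dividing pre-B-like cells, and Fcmr, Cr2, Cd22 and Ptpn6 made their largest upward steps at the immature stage. Adjacent stages were compared within mice, by edgeR's quasi-likelihood test with mouse as a block and Benjamini-Hochberg adjustment over 5199 genes. Stages are defined by Dntt, Rag1, Rag2, Il2ra, Dnajc7, Ms4a1, Ighd and cell-cycle genes, and none of the 9 genes was used in a gate. Immature-B-like and mature-B-like cells are non-dividing, with an Ms4a1 UMI and no Rag1, Rag2 or Dntt UMI. They differ only in whether an Ighd UMI was found. A mature cell without a captured Ighd molecule is thus placed in the immature class, which had a median of 1267 UMIs per cell. The number of such cells was not tested. The dividing pre-B class takes every B-lineage cell with at least 3 of 9 cell-cycle markers and no Dntt UMI. Dividing cells with Ms4a1 or Ighd are not excluded from it.

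**Figure D1:**
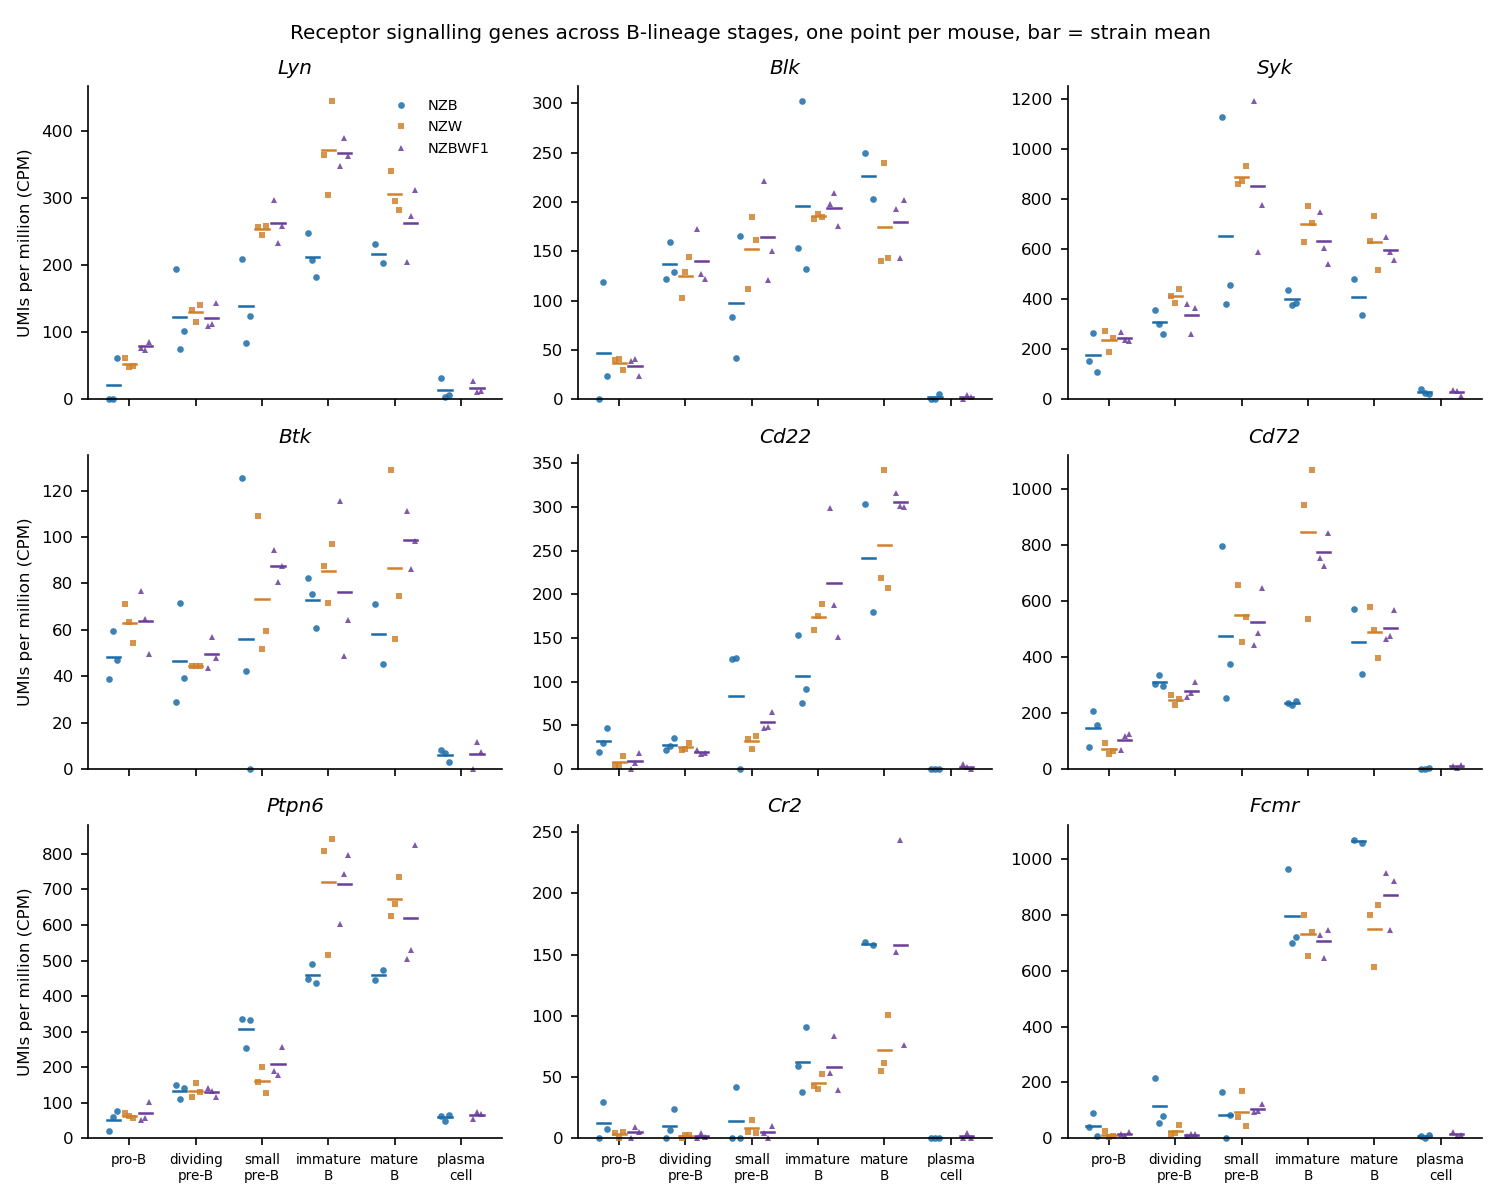
CPM (vertical axes) of the 9 genes in 6 B-lineage stages (horizontal axes, all marker-gated), with 1 point per mouse and a bar at each strain mean. Fcmr stood at 647 to 965 CPM in immature-B-like cells against 0 to 170 in small pre-B-like cells, and every gene was near the bottom of its axis in plasma-cell-like cells. The CPM carry no library scaling (TMM), unlike the log2 changes in the text.

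Among the kinases, Blk, which is nearly confined to the B lineage among Src kinases, had a lowest, median and highest level of 0, 38.5 and 119 CPM over 9 mice in pro-B-like cells and of 102, 129 and 172 CPM in dividing pre-B-like cells. The rise was 1.99 on the log2 scale (SE 0.16, adjusted p = 2.6e-23). One NZB mouse at 119 CPM lay inside the range of the later stage, and the other 8 lay below it. Blk did not change detectably into small pre-B-like cells (log2 change 0.15, SE 0.12, adjusted p = 0.31) and gained 0.45 at the immature stage (SE 0.14, adjusted p = 0.0071), a call lost without NZW replicate 1 or NZBWF1 replicate 2 and with at least 2000 UMIs.

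Syk, the kinase that docks on the phosphorylated receptor, had its highest mean level in small pre-B-like cells. Its lowest, median and highest levels were 109, 237 and 275 CPM in pro-B-like, 261, 364 and 441 CPM in dividing pre-B-like and 380, 860 and 1193 CPM in small pre-B-like cells. The steps were 0.75 (SE 0.11) and 1.09 (SE 0.09) on the log2 scale, with adjusted p of 5.2e-10 and 7.9e-22. Syk then fell by 0.27 into immature-B-like cells (SE 0.10, adjusted p = 0.025), where it stood at 378, 605 and 771 CPM. The fall did not pass the test in 6 of 18 alternatives, among them leaving out NZB replicate 1, NZW replicate 1 or NZBWF1 replicate 1 or 3.

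Lyn, which feeds both the activating and the inhibitory arm, rose at each of the first 3 steps. Its log2 gains were 1.07, 0.89 and 0.63 (SE 0.14, 0.11 and 0.11), and its median level went from 62.2 CPM in pro-B-like to 347 CPM in immature-B-like cells. Btk, the kinase downstream of Syk, passed the test only between dividing and small pre-B-like cells before the plasma-cell stage (log2 gain 0.72, SE 0.16, adjusted p = 6.3e-05). Its medians lay between 44.4 and 80.5 CPM in all 5 stages before plasma cells, so few molecules stand behind it.

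Of the inhibitory genes, Cd72, Ptpn6 and Cd22 all rose at the first step, Ptpn6 by a log2 gain of 1.06 (SE 0.14, adjusted p = 4.6e-10) and Cd22 by one of 0.92 (SE 0.31, adjusted p = 0.014). The Cd22 call was lost in 4 of 18 alternatives, among them leaving out NZW replicate 1 or 2 or NZBWF1 replicate 2. The Cd72 median was 93.2 CPM in pro-B-like, 272 CPM in dividing pre-B-like and 483 CPM in small pre-B-like cells, with log2 gains of 1.62 (SE 0.22, adjusted p = 1.1e-07) and 0.85 (SE 0.17, adjusted p = 7.0e-05). The next step, to immature-B-like cells, was 0.54 over all mice (SE 0.18, adjusted p = 0.014), but its direction differed by strain. In CPM Cd72 fell in each NZB mouse, from 794, 253 and 374 to 235, 227 and 244. It rose in each NZW and NZBWF1 mouse. NZB and NZW also differed in immature-B-like cells, as described below. Limiting the analysis to cells with at least 2000 UMIs brought this step to -0.010. The call was also lost with DESeq2, with classes set by marker score and without NZW replicate 1 or 3 or NZBWF1 replicate 1.

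Ptpn6, the phosphatase that Cd22 and Cd72 recruit, stood at 127, 200 and 334 CPM (lowest, median and highest) in small pre-B-like cells and at 436, 603 and 840 CPM in immature-B-like cells. The 2 ranges did not overlap, and the log2 gain was 1.98 (SE 0.11, adjusted p = 7.6e-33). Cd22, the sialic-acid-binding inhibitory receptor, went from 0, 47.2 and 127 CPM to 75.6, 159 and 299 CPM at the same step (log2 gain 2.04, SE 0.20, adjusted p = 1.4e-16). Cd22 gained a further 0.65 in mature-B-like cells (SE 0.14, adjusted p = 0.0032), where 8 mice gave 180, 301 and 342 CPM. This last call was lost with DESeq2, with at least 2000 UMIs and without NZW replicate 2 or NZBWF1 replicate 3.

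Fcmr and Cr2 made their largest upward steps at the immature stage. Over all mice, Fcmr had already risen from dividing to small pre-B-like cells (log2 gain 1.74, SE 0.36, adjusted p = 9.5e-05). In CPM this rise was not seen in every mouse. NZB mice went from 215, 55.3 and 78.5 CPM to 167, 0 and 83.0 CPM, the latter from 4, 0 and 2 UMIs. NZW mice went from 15.6, 20.7 and 46.1 CPM to 75.3, 170 and 42.4 CPM. NZBWF1 mice went from 7.78, 14.2 and 16.3 CPM to 94.3, 96.6 and 124 CPM. Fcmr went from 0, 94.3 and 170 CPM to 647, 728 and 965 CPM between small pre-B-like and immature-B-like cells, with no overlap between the stages (log2 gain 3.05, SE 0.25, adjusted p = 6.7e-13). Cr2 went from 0, 4.72 and 42.2 CPM to 37.8, 52.8 and 91.3 CPM (log2 gain 2.85, SE 0.40, adjusted p = 7.3e-10). Cr2 gained another 1.09 in mature-B-like cells (SE 0.24, adjusted p = 0.0022), which had 54.6, 127 and 244 CPM. Fcmr did not change detectably there (log2 change 0.22, SE 0.18, adjusted p = 0.80).

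All 9 genes fell from mature-B-like to plasma-cell-like cells, the antibody-secreting end of the lineage. Only 5 mice (2 NZB and 3 NZBWF1) had sums at both of these stages. The log2 changes were -4.33 for Fcmr, -4.16 for Blk, -4.03 for Cd72, -2.40 for Syk, -2.37 for Lyn, -1.74 for Btk and -1.28 for Ptpn6. Ptpn6 kept the most, with 47.6, 64.9 and 75.2 CPM over 6 mice. A Ptpn6 UMI was present in 43.6% of plasma-cell-like cells, which had a median of 9526 UMIs. The log2 changes include the library scaling (TMM) of the tests, and the CPM do not. In mean CPM Ptpn6 went from 599 in mature-B-like to 62.6 in plasma-cell-like cells, a larger fall than its log2 change gives. Cd22 and Cr2 each had 2 UMIs in 259 plasma-cell-like cells, and for these genes a fold is not given.

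In counts, 6 of the 9 genes rose from pro-B-like to dividing pre-B-like cells and none fell, where 34.1% of all genes tested changed. From dividing to small pre-B-like cells 8 rose and none fell, against 58.2% of all genes changing. Of these 8, the Cr2 call was lost in 10 of 18 alternatives, among them leaving out NZB replicate 2, NZW replicate 1 or 2 or NZBWF1 replicate 1 or 3, and the Ptpn6 call in 3, among them leaving out NZBWF1 replicate 3. Fcmr, also among the 8, did not rise in CPM in every mouse. From small pre-B-like to immature-B-like cells 7 rose and 1 fell, against 33.2%. Cd72, among the 7, fell in CPM in every NZB mouse. From immature-B-like to mature-B-like cells 2 rose, against 1%, and 9 fell into plasma-cell-like cells, against 46.9%. The median log2 change of the 9 genes was 0.92, 0.89, 0.63, 0.01 and -4.03 over these 5 steps. The genes were chosen for acting in B cells, and the counts are a description of the order of the steps.

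A list of 50 further genes of the pathway gave the wider setting, of which 42 were measured well enough to be tested between stages. From dividing to small pre-B-like cells 28 rose and 1 fell, with a list median of 0.78 against 0.03 for all genes. Among those that rose, named after their values were seen, were the receptor chains Cd79b (log2 gain 1.24) and Cd79a (0.91) and the inhibitory receptor Siglecg (1.07). From small pre-B-like to immature-B-like cells 25 rose and 5 fell, with a list median of 0.65 against 0.01. The adaptor Lat2 (2.80), the inhibitory receptor Pirb (3.13) and the phosphatase Ptpn22 (4.76) were among those that rose, and the adaptor Blnk (-0.46), which links Syk to Btk, was among those that fell. No gene of the list was called between immature-B-like and mature-B-like cells. Into plasma-cell-like cells 30 fell and 4 rose.

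Across the whole marrow, the 9 genes differed in how much of their UMIs lay in the B-lineage stages. Of the UMIs in all 22 classes, the B-lineage stages held 97.6% for Fcmr, 93.9% for Blk, 93.8% for Cr2, 88.4% for Cd72 and 85.2% for Cd22. They held 49.8% for Syk, 28.3% for Btk, 21.4% for Lyn and 21.3% for Ptpn6. These shares depend on how many cells of each class were captured.

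**Figure D2:**
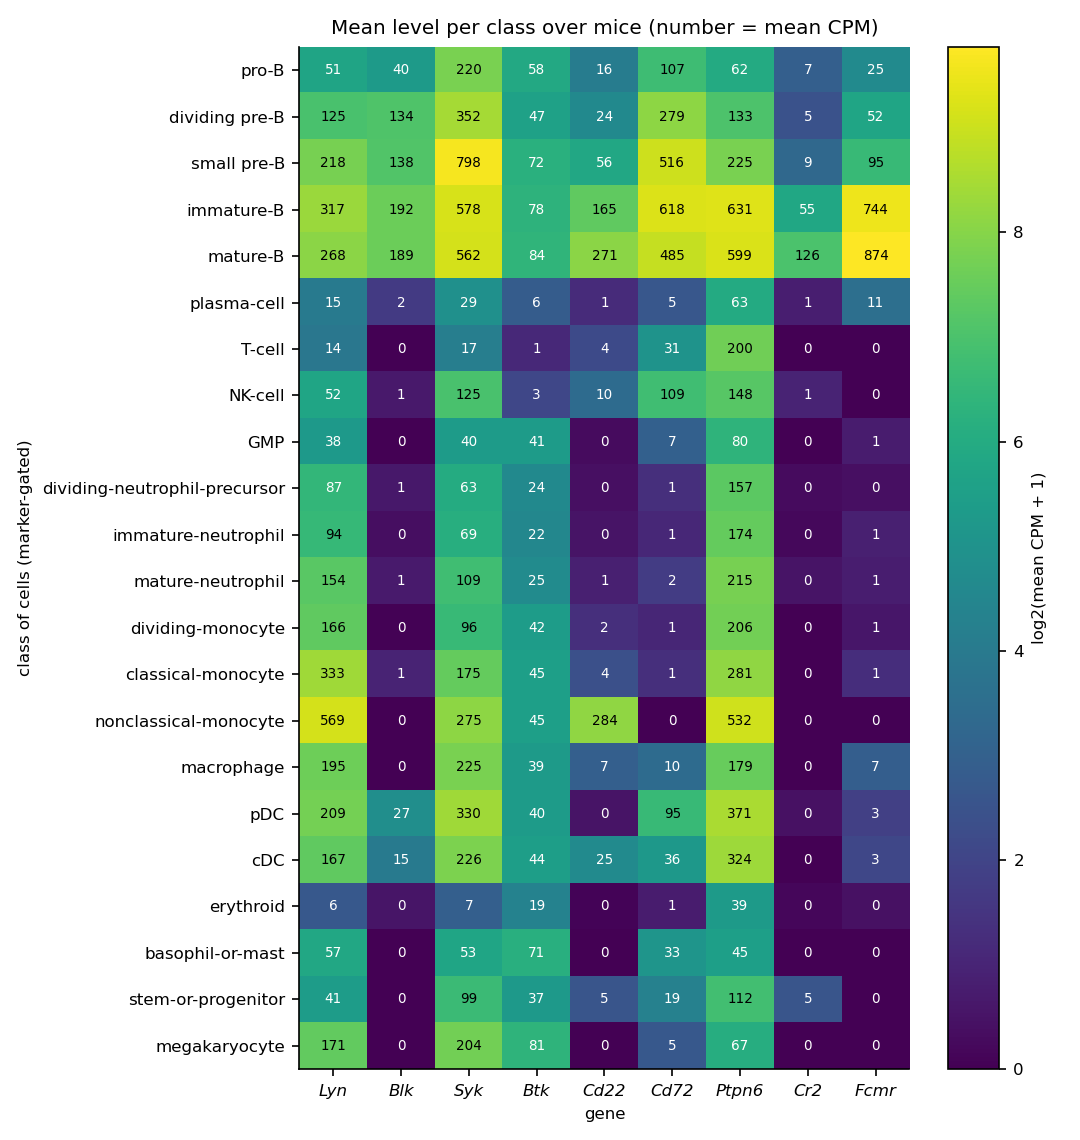
Mean CPM over mice (numbers, 3 to 9 mice per class) of the 9 genes (columns) in 22 marker-gated classes (rows), coloured by log2(mean CPM + 1). Fcmr and Cr2 are brightest in the immature-B-like and mature-B-like rows and Blk in the B-lineage rows from dividing pre-B-like to mature-B-like cells, Lyn, Syk and Ptpn6 are bright in myeloid rows too, and Cd22 is bright in 1 myeloid row, the nonclassical monocytes.

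The share of cells with at least 1 UMI, each cell thinned to 1000 UMIs, gave a similar order, but Cd72 and Btk stood side by side in it. At least 5% of cells had a UMI in 21 of 22 classes for Ptpn6, 17 for Lyn and for Syk, 9 for Btk, 8 for Cd72, 4 for Blk, 3 for Cd22 and for Fcmr and 2 for Cr2. All kept cells had 1000 UMIs or more, so none was lost to thinning. In barcodes with fewer than 100 UMIs, which hold free RNA, the 9 genes stood between 2.67 and 268 CPM. Those with 10 to 99 UMIs had medians of 12 to 17 UMIs.

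Ptpn6 had its next highest mean levels after the immature and mature stages in nonclassical-monocyte-like (532 ± 104 CPM, SD, n = 8), pDC-like (371 ± 42.1 CPM, SD, n = 9) and cDC-like cells (324 ± 48.4 CPM, SD, n = 6), against 39.1 ± 4.72 CPM (SD, n = 9) in erythroid-like cells. Lyn was at its highest mean level outside the B lineage, with 569 ± 168 CPM (SD, n = 8) in nonclassical-monocyte-like and 333 ± 44.3 CPM (SD, n = 9) in classical-monocyte-like cells, compared with 317 ± 87.8 CPM (SD, n = 9) in immature-B-like cells. The last 2 means differed by less than the SD between mice. Syk outside the B lineage was highest in pDC-like cells (330 ± 124 CPM, SD, n = 9). Mean levels of Btk lay between 19.2 and 83.9 CPM in every class except T-cell-like, NK-cell-like and plasma-cell-like cells, where they were 1.18, 3.27 and 6.11 CPM. Btk UMIs numbered 1, 3 and 17 in these classes, at median depths of 1291, 1427 and 9526 UMIs per cell.

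Cd22 had its highest mean level in a myeloid class. It was 284 ± 146 CPM (SD, n = 8) in nonclassical-monocyte-like and 271 ± 59.7 CPM (SD, n = 8) in mature-B-like cells. These 2 means differed by less than the SD between mice, and the median was higher in mature-B-like cells (301 CPM). In nonclassical-monocyte-like cells, gated by Treml4, Ace and related markers, Cd22 had a lowest, median and highest level of 122, 285 and 563 CPM over 8 mice. In classical-monocyte-like cells it had 0, 3.51 and 10.9 CPM over 9 mice, so the ranges did not overlap. A Cd22 UMI was present in 51 of 151 nonclassical cells, or 33.8% (95% Wilson interval 26.7 to 41.6), and in 0.912% of classical cells, with median depths of 1266 and 1810 UMIs per cell. Thinned to 1000 UMIs the shares were 27.8% and 0.473%.

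Besides Cd22 the nonclassical cells carried Lyn, Ptpn6 and Syk (mean 275 CPM) and a lower level of Btk (44.9 CPM). Cd72, Fcmr, Blk and Cr2 had a UMI in 0 of 151 cells, which allows a share of up to 1.99% of cells with a UMI at this depth and sets no limit on cells expressing the genes. Of the 51 cells with a Cd22 UMI, 49 had none of the 9 B-lineage gate markers and 2 had 1. The summed level of these markers in the class was 0 to 310 CPM in NZB, 0 to 79.1 CPM in NZW and 0 to 61.0 CPM in NZBWF1 mice, and 5 of the 9 markers were at 0. The median depth was 1242 UMIs in cells with a Cd22 UMI and 1300.5 in the others.

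Cd72 was also present outside the B lineage. NK-cell-like cells had 62.1, 115 and 162 CPM over 9 mice, pDC-like cells 71.2, 89.3 and 131 CPM, and T-cell-like cells 0, 34.4 and 53.0 CPM. After thinning, 10.8%, 9.16% and 3.68% of the cells had a UMI, against 0.0989% to 0.184% in the 3 neutrophil classes. Basophil-or-mast-like cells had 5.70%, from 9 UMIs in 95 cells of all mice, and the 5 mice with enough of these cells for a level had 0, 34.4 and 82.9 CPM, from 0 to 2 UMIs each. Blk had 4.45, 24.6 and 56.3 CPM in pDC-like cells, from 97 UMIs in 2301 cells.

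The genes whose mean level followed each member most closely over the 22 classes were named by Pearson's r of log2(CPM + 10) among 10157 genes, as a description that shares its libraries with the gates. For Fcmr these were Ms4a1 (r = 0.99), a gate marker, Scd1 and Klhl14 (both 0.98). For Blk they were Fam129c (0.97), Chst3 (0.96) and Fcrla (0.95), for Cr2 Fcer2a, Cacna1i and Gm15848 (all 0.96), and for Cd72 Gm16152, Mcoln2 (both 0.95) and Rhoh (0.92). For Cd22 they were Cd40 (0.90), Cd83 (0.87) and Bmf (0.84). Ptpn6 was closest to Lsp1, Dennd4b (both 0.90) and Tfeb (0.87), Lyn to Ptprj (0.91), Arl8a (0.88) and Stx7 (0.87), Syk to genes that include Gpcpd1 (0.86), and Btk to Ccdc28b (0.84), Mrpl43 and Lyl1 (both 0.79).

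The strains were then compared within each class, to find which receptor genes differ in the F1 mice and between its parents. With the main settings, few differences within the B lineage were called, and all lay in immature-B-like cells. Cd72, the inhibitory receptor, was 3.21-fold lower in NZB than in NZW mice, a difference that was smaller when shallower cells were kept, and Syk was 1.56-fold lower. For Cd72 the NZBWF1 mice overlapped the NZW mice, and no member was called between NZBWF1 and NZW in any B-lineage stage.

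**Figure D3:**
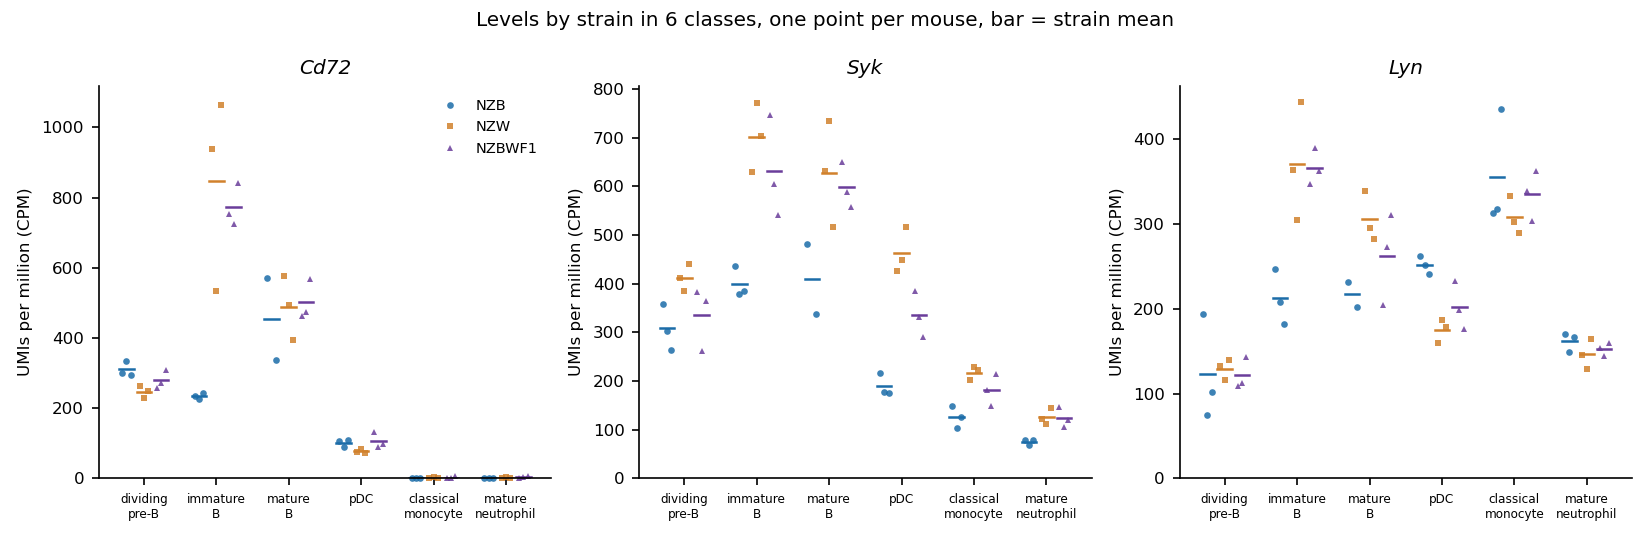
CPM (vertical axes) of Cd72, Syk and Lyn in 6 marker-gated classes, with 1 point per mouse and a bar at each strain mean. For Cd72 in immature-B-like cells the NZB mice sit between 227 and 244 CPM and the other 6 mice between 534 and 1065, and for Syk in pDC-like cells the 3 strains stand in separate bands.

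In immature-B-like cells Cd72 stood at 235, 227 and 244 CPM in the NZB mice, at 940, 534 and 1065 CPM in the NZW mice and at 752, 724 and 840 CPM in the NZBWF1 mice. Every NZB mouse was below every other mouse, and NZW and NZBWF1 overlapped. The NZB values rest on 20, 12 and 24 UMIs, and 1 UMI was worth 10.1 to 18.9 CPM there. The log2 fold change was -1.68 for NZB against NZW (SE 0.23, adjusted p = 8.8e-08) and 1.52 for NZBWF1 against NZB (SE 0.23, adjusted p = 2.4e-06). Against the mean of both parents NZBWF1 was 0.68 higher (SE 0.17, adjusted p = 0.016), and this call was lost with at least 500 UMIs, with mixed cells kept and on leaving out NZB replicate 3, NZW replicate 2 or NZBWF1 replicate 1 or 3. It passed on neither side of a split of the cells by Vpreb3, described below. These comparisons share mice. With cells of at least 500 UMIs kept, NZB stood at 504, 466 and 477 CPM and NZW at 968, 777 and 1123 CPM, and the log2 fold change of NZB against NZW was -0.88 (SE 0.14, adjusted p = 3.0e-06).

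Cd72 did not pass the test at the other stages. In pro-B-like cells NZB had 77.7, 208 and 156 CPM, from 4, 7 and 20 UMIs, and NZW 93.2, 52.2 and 64.4 CPM, so the strains overlapped, and the log2 fold change had the opposite sign to that in immature-B-like cells (1.05, SE 0.37, adjusted p = 0.21). In dividing pre-B-like cells NZB had 301, 335 and 294 CPM against 263, 228 and 249 CPM in NZW (log2 fold change 0.33, SE 0.14, adjusted p = 0.32). In small pre-B-like cells the log2 fold change was -0.38 (SE 0.32, adjusted p = 0.78). In mature-B-like cells the 2 NZB mice had 570 and 338 CPM and the NZW mice 577, 495 and 394 CPM (log2 fold change -0.04, SE 0.27, adjusted p = 0.98). The strain difference itself differed between the immature and dividing pre-B stages by -1.98 (SE 0.26, adjusted p = 3.0e-07). Between mature and immature stages it differed by 1.56 (SE 0.36, adjusted p = 0.016). Both pairs of stages were chosen after the values were seen. The second rests on 2 NZB mice, and its call was lost in 6 of 16 alternatives. In the pair planned at the start, mature against small pre-B stages, the strain difference differed by 0.13 (SE 0.41, adjusted p = 0.98). Joining the immature-B-like and mature-B-like sums gave -1.07 for Cd72 (edgeR adjusted p = 1.5e-04) and -0.60 for Syk (adjusted p = 0.025). NZB replicate 2 entered the joined sum with its immature-B-like cells only.

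Levels of stage-related genes moved with the strain in the immature class. Of the genes named here, Vpreb3 and Ebf1 are also among the 9 B-lineage gate markers. Vpreb3, a surrogate-light-chain gene of early B cells, had a UMI in 23.7% to 39.2% of immature-B-like cells per NZB mouse, in 65.3% to 78.0% per NZW mouse and in 62.4% to 73.0% per NZBWF1 mouse. Ebf1, an early B-cell factor, averaged 617 ± 223 CPM (SD, n = 3) in NZB and 1510 ± 146 CPM (SD, n = 3) in NZW, and H2-Ab1, a class II antigen-presentation gene that comes up with maturation, 1426 ± 262 and 920 ± 280 CPM. The summed B-lineage gate markers were 7221 to 9675 CPM in NZB and 12402 to 14275 CPM in NZW. The immature-B-like cells were also split by whether they had a Vpreb3 UMI, a split added after the data were seen. Among cells with a Vpreb3 UMI, Cd72 was 360 and 591 CPM in 2 NZB mice, the third being left out with 9 cells, and 1327, 674 and 1242 CPM in NZW (log2 fold change -1.23, SE 0.30, adjusted p = 0.017). Among cells without one it was 155, 160 and 112 CPM against 257, 270 and 439 CPM (log2 fold change -1.10, SE 0.35, adjusted p = 0.065). Every NZB mouse was below every NZW mouse on both sides of this split. Against the mean of parents NZBWF1 was not called for Cd72 with a Vpreb3 UMI (0.41, edgeR adjusted p = 0.54) or without one (0.77, 0.31). Against NZB it was called among cells without a Vpreb3 UMI (1.33, 0.029) and not among those with one (1.03, 0.071). The part of the make-up of the class in the Cd72 difference was not tested, and fewer cells of a kind and less RNA per cell cannot be told apart in such sums.

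Syk in immature-B-like cells was 435, 378 and 386 CPM in NZB, 629, 771 and 704 CPM in NZW and 747, 605 and 542 CPM in NZBWF1. The NZB mice lay below all others (NZB against NZW log2 fold change -0.64, SE 0.20, adjusted p = 0.029). The call was lost with DESeq2 and on leaving out any 1 of the 3 NZB mice or NZW replicate 2, while the log2 fold changes on leaving out 1 mouse ranged from -0.73 to -0.59. It was also lost among cells with a Vpreb3 UMI (-0.55, edgeR adjusted p = 0.47, with 1 NZB mouse left out). Among cells without a Vpreb3 UMI Syk was called (-0.88, adjusted p = 0.020). Lyn was 247, 208 and 183 CPM in NZB and 364, 305 and 444 CPM in NZW, which do not overlap, but the test did not pass (log2 fold change -0.65, SE 0.24, adjusted p = 0.092). Ptpn6 was 447, 491 and 436 CPM against 807, 516 and 840 CPM (log2 fold change -0.51, SE 0.20, adjusted p = 0.12). Lyn passed with 10 counts required in every mouse (edgeR adjusted p = 0.0055), without NZW replicate 2 (0.037), without the filter on low counts (0.020), with at least 500 UMIs (0.014) and with classes set by marker score (0.013). Ptpn6 passed in the first 3 of these (0.0078, 0.014 and 0.0084). Syk in dividing pre-B-like cells was 358, 303 and 263 CPM in NZB and 412, 385 and 441 CPM in NZW, without overlap. It was not called there with the main settings, but edgeR called it in some alternatives, such as without the filter (-0.51, adjusted p = 0.037). In small pre-B-like cells it was called without the filter too (-0.97, 0.041). In mature-B-like cells 2 NZB mice had 481 and 338 CPM against 632, 735 and 516 CPM in NZW, without a call.

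In counts, 2 of 9 members were called between NZB and NZW in immature-B-like cells, where 6.88% of all genes were called. In the other stages 0 were called, against 1.45% of all genes in pro-B-like, 2.08% in dividing pre-B-like, 1.08% in small pre-B-like and 1.39% in mature-B-like cells. Of these 38 edgeR tests 14 passed at an unadjusted p under 0.05. Against the mean of parents 1 of 38 tests was called, in immature-B-like cells, where 1.59% of all genes were, and 5 passed unadjusted. In the other stages of that comparison 0.184%, 0.168%, 0.175% and 0.327% of all genes were called. Between NZBWF1 and NZB 1 of 40 tests was called, in immature-B-like cells (5.5% of all genes). From pro-B-like to plasma-cell-like cells the other stages had 0.277%, 0.493%, 0.209%, 1.09% and 1.04%. Between NZBWF1 and NZW 0 of 38 were called, with 3 unadjusted, against 0.553%, 0.926%, 0.489%, 0.397% and 0.436% of all genes from pro-B-like to mature-B-like cells. The NZB cells were few, and the SE of Fcmr in small pre-B-like cells, for example, was 0.75 on the log2 scale. Keeping all genes without the filter on low counts moved the all-gene median in immature-B-like cells from 0.00 to -0.26 and the split of called genes from 152 higher and 108 lower to 82 higher and 182 lower. Lyn (-0.87) and Ptpn6 (-0.74) were then called too.

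Among the 50 further pathway genes, 7 of 40 tested were called between NZB and NZW in immature-B-like cells, 4 higher and 3 lower in NZB. The list median was -0.11, against 0.00 for all genes. Those higher in NZB were the phosphatase Ptpn22 (log2 fold change 1.81, 164 ± 32.1 against 47.4 ± 31.1 CPM), the calcium-regulated factor Nfatc1 (0.99), the Fc-receptor-like gene Fcrl1 (0.85) and the scaffold Bank1 (0.64). Those lower included the inhibitory adaptor Dok3 (-1.32, 90.2 ± 42.6 against 239 ± 14.9 CPM) and the Fc-receptor-like gene Fcrla (-1.28, 197 ± 91.2 against 563 ± 104 CPM). Errors are SD over 3 mice a strain. From small pre-B-like to immature-B-like cells Ptpn22, Nfatc1, Fcrl1 and Bank1 rose and Dok3 (-0.49) and Fcrla (-0.64) fell.

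In dividing pre-B-like cells 3 of 41 list genes were called between NZB and NZW. Siglecg, an inhibitory receptor related to Cd22, was higher in NZB (log2 fold change 1.02, 317 ± 33.7 against 158 ± 30.4 CPM, adjusted p = 5.7e-06). Fcgr2b, the inhibitory Fc receptor, was lower (-1.16, 25.0 ± 3.11 against 57.2 ± 3.40 CPM, adjusted p = 0.024), and so was Fcrla (-0.90). The NZB value of Fcgr2b rests on 18 UMIs. Against the mean of parents only Fcrla was called in the B-lineage stages, in immature-B-like cells (0.78 higher in NZBWF1, adjusted p = 0.0085). In pro-B-like, small pre-B-like and mature-B-like cells no list gene was called between the parents.

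Syk was lower in NZB marrow well beyond the B lineage. It was lower in NZB than in NZW in 14 of the 15 classes where it was tested and was called in 6 of them, including the immature-B-like class. The largest difference was in pDC-like cells, the gated plasmacytoid dendritic cells. Lyn was called higher in NZB in 2 of 14 classes.

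**Figure D4:**
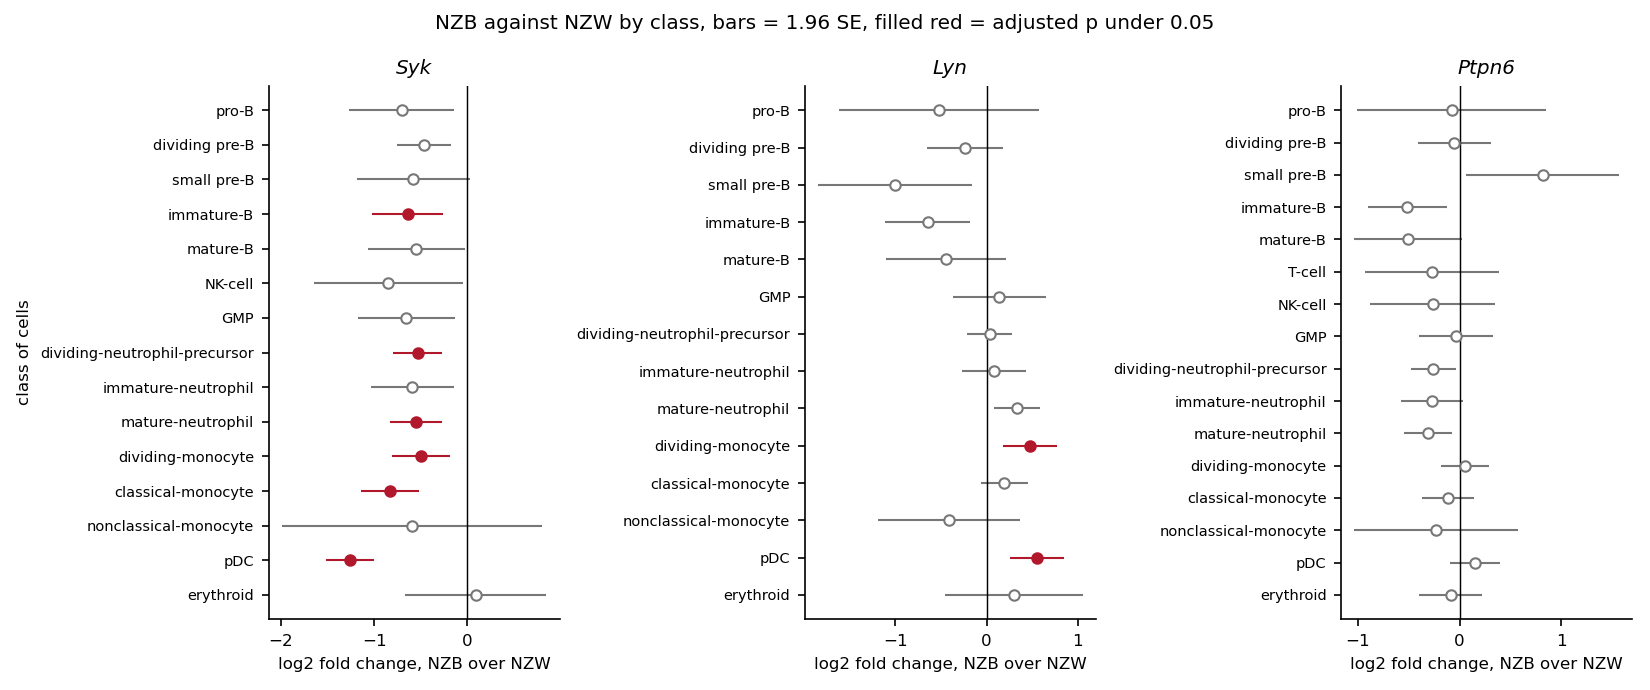
Log2 fold change of NZB over NZW (horizontal axes, with 95% intervals) for Syk, Lyn and Ptpn6 in each marker-gated class where the gene was tested (vertical axes), filled red where the adjusted p was under 0.05. Syk lies below 0 in 14 of 15 classes, with -1.26 in pDC-like cells, and Lyn is called in pDC-like (0.55) and dividing-monocyte-like cells (0.47).

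Syk in pDC-like cells stood at 217, 177 and 176 CPM in NZB, at 427, 449 and 516 CPM in NZW and at 386, 331 and 291 CPM in NZBWF1. The 3 strains did not overlap, with NZBWF1 between its parents. The log2 fold changes were -1.26 for NZB against NZW (SE 0.13, adjusted p = 9.6e-13), 0.79 for NZBWF1 against NZB (SE 0.13, adjusted p = 3.0e-06) and -0.47 for NZBWF1 against NZW (SE 0.13, adjusted p = 0.029). The last call was lost in 8 of 20 alternatives, among them DESeq2 and leaving out any 1 of 4 mice (NZW replicate 2 or 3, NZBWF1 replicate 2 or 3).

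Markers moved with the strain in pDC-like cells too. The summed level of the 4 pDC gate markers was 6990 to 7479 CPM in NZB, 2665 to 3112 CPM in NZW and 4114 to 4463 CPM in NZBWF1. The 9 cell-cycle markers summed to 409 to 789, 1151 to 2162 and 393 to 820 CPM, and the 7 plasma-cell markers to 270 to 332, 552 to 5001 and 644 to 1653 CPM. The 7 stem and progenitor markers summed to 1259 to 1913, 160 to 236 and 407 to 577 CPM. The 9 B-lineage markers summed to 73.0 to 143 CPM in every mouse. The part of these in the Syk difference was not tested.

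In classical-monocyte-like cells Syk was 149, 103 and 125 CPM in NZB and 202, 228 and 222 CPM in NZW (log2 fold change -0.83, SE 0.16, adjusted p = 1.2e-04), with NZBWF1 at 182, 149 and 214 CPM. In mature-neutrophil-like cells it was 78.6, 69.4 and 78.8 CPM in NZB, below all NZW (122, 112 and 144 CPM) and NZBWF1 mice (146, 106 and 120 CPM), with a log2 fold change of -0.55 (SE 0.14, adjusted p = 0.012), a call lost without NZB replicate 2 or 3 or NZW replicate 3, with DESeq2 and with at least 500 UMIs. With at least 2000 UMIs the Syk difference was -0.46 in classical-monocyte-like (adjusted p = 0.39) and -0.14 in mature-neutrophil-like cells (adjusted p = 0.97), and neither passed. In dividing-neutrophil-precursor-like and dividing-monocyte-like cells the values were -0.53 (adjusted p = 0.0056) and -0.49 (adjusted p = 0.032). The first was lost without NZW replicate 3 and with at least 2000 UMIs, and the second with DESeq2 and without NZB replicate 1 or 3 or any 1 NZW mouse, with -0.31 without NZB replicate 1. The parents did not overlap in either class, although in the dividing monocytes the highest NZB mouse (104.4 CPM) lay just under the lowest NZW mouse (104.9 CPM). The mean of NZBWF1 lay between those of the parents in 12 of the 20 classes with sums in every strain, 1 of which has both NZW and NZBWF1 at 0, with the NZB mice all below the NZW mice in 9. Of these 9, macrophage-like cells have 1 NZB mouse and mature-B-like cells 2. The classes share mice, and the share of all genes with no overlap of the parents in as many classes was not determined.

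Lyn in pDC-like cells was 262, 251 and 241 CPM in NZB, 160, 187 and 178 CPM in NZW and 233, 198 and 176 CPM in NZBWF1 (NZB against NZW log2 fold change 0.55, SE 0.15, adjusted p = 0.011), a call lost with DESeq2, with at least 2000 UMIs and without NZW replicate 1 or 3. In dividing-monocyte-like cells it was 148, 258 and 210 CPM in NZB and 141, 157 and 150 CPM in NZW, and here the strains overlapped (0.47, SE 0.15, adjusted p = 0.037). DESeq2 and leaving out NZB replicate 2 or 3, any 1 NZW mouse or NZBWF1 replicate 1 ended this call, and without NZB replicate 2 the difference was 0.24. The difference of Lyn between NZB and NZW was 1.23 larger in pDC-like than in immature-B-like cells (SE 0.28, adjusted p = 0.0011), a pair of classes chosen after the values were seen.

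In counts, 7 of 41 member tests outside the B lineage were called between NZB and NZW, 5 lower and 2 higher in NZB, all of Syk or Lyn. Of all genes, 7.61% were called in pDC-like, 16.1% in classical-monocyte-like, 12.7% in dividing-monocyte-like, 10.3% in mature-neutrophil-like and 9.51% in dividing-neutrophil-precursor-like cells. In classes with no member called, 1.85% of all genes were called in T-cell-like, 2.59% in NK-cell-like, 7.06% in GMP-like, 3.85% in immature-neutrophil-like, 3.02% in nonclassical-monocyte-like and 9.36% in erythroid-like cells. Between NZBWF1 and NZB 4 of 41 were called, Syk in pDC-like (2.59% of all genes), classical-monocyte-like (8.04%) and mature-neutrophil-like cells (4.53%) and Lyn in dividing-monocyte-like cells (4.59%). Of 20 alternatives each, the call was lost in 1 for Syk in pDC-like, 6 in classical-monocyte-like and 12 in mature-neutrophil-like cells and in 9 for Lyn. Leaving out any 1 mouse but NZW replicate 2 or NZBWF1 replicate 2 ended the call in mature-neutrophil-like cells, and any 1 but NZB replicate 1 or NZBWF1 replicate 2 that of Lyn. In classical-monocyte-like cells it was NZB replicate 2 or 3 or NZBWF1 replicate 1 or 3. Elsewhere in that comparison the share was 0.499% in T-cell-like, 0.924% in NK-cell-like, 1.1% in GMP-like, 3.3% in dividing-neutrophil-precursor-like, 0.767% in immature-neutrophil-like, 0.647% in nonclassical-monocyte-like and 1.38% in erythroid-like cells. Between NZBWF1 and NZW 1 of 45 was called, Syk in pDC-like cells (2.07%), against 6.16% of all genes in macrophage-like, 2.74% in erythroid-like and 1.26% in dividing-neutrophil-precursor-like cells. The other classes had 0.642% (T-cell-like), 0.831% (NK-cell-like), 0.597% (GMP-like), 0.642% (immature-neutrophil-like), 0.913% (mature-neutrophil-like), 0.765% (dividing-monocyte-like), 0.718% (classical-monocyte-like), 0.647% (nonclassical-monocyte-like), 0.232% (cDC-like) and 0.501% (stem-or-progenitor-like). Ptpn6 was tested in 16 classes and Btk in 13, and with the settings described edgeR called neither between the parents in any, although Ptpn6 passed in immature-B-like cells under the alternatives given above. Ptpn6 was lower in NZB than in NZW in 13 of the 16 classes, which come from the same mice. In mature-neutrophil-like cells it was 175, 184 and 165 CPM in NZB, 242, 251 and 250 CPM in NZW and 221, 226 and 223 CPM in NZBWF1. The 3 strains did not overlap there, but the test did not pass (NZB against NZW log2 fold change -0.31, SE 0.12, adjusted p = 0.11). Against the mean of parents no member was called outside the B lineage in 41 edgeR tests, with 4 at an unadjusted p under 0.05, and of all genes 0.104% to 0.852% were called in these classes.

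Fcmr in dividing pre-B-like cells was uneven in NZB. It was 215, 55.3 and 78.5 CPM there, 15.6, 20.7 and 46.1 CPM in NZW and 7.78, 14.2 and 16.3 CPM in NZBWF1. Every NZB mouse lay above all others, but the test did not pass (NZB against NZW log2 fold change 1.89, SE 0.63, adjusted p = 0.30). Without the filter on low counts it was called (1.84, adjusted p = 2.2e-04), and DESeq2 called NZBWF1 against NZB (-3.16, adjusted p = 0.0012). Dividing cells with Ms4a1 or Ighd were not excluded from this class, and their part in the Fcmr difference was not tested.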

How the data were processed

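Libraries were made by the authors with the 10x Genomics 3′ kit (v3.1), 1 per mouse, and per the labels were processed with bcl2fastq 2.20 and Cell Ranger 3.1.0 on build mm10 and pooled by its aggregation step. The deposited values are raw UMI counts per gene and barcode. The number at the end of each barcode was read as the library's line in the aggregation list, which the sources do not state. Reads of NZB and NZW mice were counted on the reference strain, and sequence differences were not examined here. Because these are 3′ counts, no length scaling was applied.

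Cells with at least 1000 UMIs, 500 genes and at most 10% mitochondrial UMIs were kept. Each was assigned to a class by the number of markers detected (for B lineage 3 of 9), and cells passing 2 lineages were left out. No doublet caller was run, and doublets within a lineage would remain. The counts were summed per class and mouse and tested with edgeR 4.0.16 (robust quasi-likelihood, TMM, filterByExpr, in R 4.3.3), calling an adjusted p under 0.05; DESeq2 1.42.0 was an alternative. Tests needed 2 mice a strain. The SE of an edgeR log2 change is its absolute value divided by the square root of the test's F statistic. In the strain comparisons, genes named from the 50-gene list were those called between parents or against their mean (weights -0.5, 1, -0.5). Those named for changes between stages were picked after their values were seen. On simulated data 200 genes were changed 2-fold, all drawn from genes with total counts at or above the median. The test recovered 97 in immature-B-like, 155 in dividing pre-B-like and 151 in pDC-like cells, and called 5, 6 and 7 unchanged genes. Recovery of genes with lower counts was not simulated. Intervals for shares cover counting error only. The members, lists and some tests were chosen with earlier results of these data known. Replicate numbers were not taken to pair the mice, since in none of 5 classes was every same-number pair correlated above 0.1. In mature-neutrophil-like cells 8 of 9 pairs passed 0.1 (median r 0.32), and the main tests there carry no replicate term. Some genes that these rules select are not reported here.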

Additional observations from a re-analysis of the deposited data

Results flagged for a closer look

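A test of the difference between classes flagged 6 strain differences, all of NZB against NZW and all in pairs of classes added after the data were seen. For Cd72 the difference in immature-B-like minus that in dividing pre-B-like cells was -1.98 (adjusted p = 3.0e-07). It was 1.56 higher in mature-B-like than in immature-B-like cells (adjusted p = 0.016) and 2.14 higher in pDC-like than in immature-B-like cells (adjusted p = 1.4e-09). For Lyn the difference was 1.23 higher in pDC-like than in immature-B-like cells (adjusted p = 0.0011), and for Ptpn6 0.67 higher (adjusted p = 0.045). For Fcmr it was -1.75 in immature-B-like relative to dividing pre-B-like cells (adjusted p = 0.024). The Ptpn6 call was lost in 10 of 18 alternatives, that of Fcmr in 10 of 17 and that of Cd72 between mature and immature stages in 6 of 16, while the other 3 were kept in all 18. The pair planned at the start, mature-B-like minus small pre-B-like, gave no call among 18 tests by edgeR, with 1 of 18 at an unadjusted p under 0.05.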

How the results depend on the processing

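Few NZB B-lineage cells, and 12 to 24 Cd72 UMIs per NZB mouse in the immature class, limit the strain comparisons. Of 55 member results past the threshold, 24 kept the call in every alternative counted. The split of immature-B-like cells by Vpreb3, added after the data were seen, was counted for NZB against NZW only. Cd72 of NZBWF1 against NZB in immature-B-like cells is among the 24, but it did not pass among cells with a Vpreb3 UMI (1.03, edgeR adjusted p = 0.071). Only Cd72 between immature-B-like and small pre-B-like cells changed sign, to -0.010 with at least 2000 UMIs and 1000 genes.

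Between NZB and NZW in the B-lineage stages, 2 calls became 7 without the filter, 7 with at least 500 UMIs and 250 genes, 4 with 10 counts in every mouse, 1 with DESeq2, and 1 to 3 on leaving out 1 mouse, with 1 without NZB replicate 2 or 3. Against the mean of parents, 1 call became 2 without the filter and 0 with at least 500 UMIs, with mixed cells kept or with immature and mature stages joined, and 0 to 1 on leaving out 1 mouse. For NZBWF1 against NZB, 1 call became 2 with DESeq2, 3 without the filter, 4 with 10 counts in every mouse, 6 with at least 500 UMIs, and 1 to 2 without 1 mouse, with 2 without NZW replicate 3. With at least 2000 UMIs these 3 comparisons gave 0 calls, but from only 8, 8 and 9 tests, as immature-B-like cells were too few in NZB to be tested. For NZBWF1 against NZW, 0 became 1 with at least 500 UMIs. Outside the B lineage, 7 calls became 3 with DESeq2, 3 with at least 2000 UMIs and 13 with classes set by marker score, and 2 to 7 without 1 mouse, with 4 on leaving out NZB replicate 3 or NZW replicate 1 and 2 without NZW replicate 3. Between stages, 33 calls became 20 with at least 2000 UMIs, and 28 to 33 without 1 mouse. The cause of these shifts was not tested. With a limit of 500 UMIs the Cd72 difference in immature-B-like cells was -0.88.

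The correlation of deviations between same-numbered mice ranged from -0.13 to 0.58 over 5 classes. It was over 0.1 in 8 of 9 pairs in mature-neutrophil-like, 5 in dividing-neutrophil-precursor-like, 2 in classical-monocyte-like, 1 in dividing pre-B-like and 0 in pDC-like cells, so the numbers were not taken to pair the mice. With the replicate number as a block the counts of member calls stayed within 1.5 times, with 2 between NZB and NZW in the B-lineage stages and 9 in place of 7 outside them.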

Other observations

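Cr2 gave a further strain difference when shallower cells were kept. With cells of at least 500 UMIs kept, Cr2 in immature-B-like cells was 122, 275 and 172 CPM in NZB, 37.0, 28.8 and 41.7 CPM in NZW and 70.3, 71.5 and 43.8 CPM in NZBWF1, from 27, 39 and 35, 24, 21 and 21, and 25, 28 and 34 UMIs. Every NZB mouse lay above all other mice (NZB against NZW log2 fold change 2.46, adjusted p = 1.2e-11 by edgeR). In mature-B-like cells it was 244, 353 and 252 CPM in NZB and 63.7, 76.9 and 93.2 CPM in NZW (1.83, adjusted p = 2.4e-10), and NZBWF1 was 0.82 above NZW (adjusted p = 0.041). With the limit of 1000 UMIs the same differences were 0.74 (SE 0.47, adjusted p = 0.44) and 1.21 (SE 0.50, adjusted p = 0.35), while among the immature-B-like cells with a Vpreb3 UMI, where 1 NZB mouse was left out, Cr2 was called higher in NZB than in NZW (2.70, SE 0.71, adjusted p = 0.026). Fcmr was 0.43 higher in NZB in mature-B-like cells under the looser limit (adjusted p = 0.048). Syk was 0.82 lower in NZB than in NZW in the same cells (edgeR adjusted p = 1.6e-04). It stood there at 445, 428 and 259 CPM in NZB and at 674, 764 and 578 CPM in NZW.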
